A study of Mus musculus with 6 samples.

Results

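Complex I (NADH:ubiquinone oxidoreductase) is the largest enzyme of the respiratory chain and is built from proteins of both genomes of the cell. Its nuclear-encoded genes were compared here between left ventricular myocardium of mice with heart failure with preserved ejection fraction (HFpEF) and of chow-fed controls (Chow). The genes were chosen by name: every protein-coding gene whose symbol begins with Nduf, which gave 46 of the 54532 gene identifiers measured. They comprise 38 genes named as subunits (Ndufa, Ndufab, Ndufb, Ndufc, Ndufs and Ndufv) and 8 assembly factors (Ndufaf), and they lie on 17 chromosomes. A further 5 rows with such a symbol are pseudogenes or non-coding and were left out. All 46 genes passed the filter on low values. Both groups were male C57BL/6 mice aged 6 to 8 weeks at the start, with 3 mice and 1 library per mouse in each. For 12 weeks, HFpEF mice ate a high-fat diet in which fat supplied 60% of kcal, and their drinking water held 0.5 g/L L-NAME, which blocks nitric oxide synthases. Chow mice received standard chow and regular water. The model combines a metabolic and a hypertensive stress, so diet and L-NAME cannot be told apart.

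Complex I takes electrons from NADH, passes them through a flavin and a chain of iron-sulfur clusters to ubiquinone, and uses the energy released to pump protons across the inner mitochondrial membrane. It has the shape of an L. The matrix arm holds the N module, where NADH is oxidized, and the Q module, where ubiquinone is reduced, and the membrane arm holds the proton-pumping modules ND1, ND2, ND4 and ND5. A conserved core carries out catalysis, supernumerary subunits surround and stabilize it, and assembly factors help to build it without remaining in the finished enzyme. Cardiomyocytes are dense in mitochondria and depend on the respiratory chain for most of their ATP.

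Promoter windows from RefSeq (GRCm38.p6) are shown for the 4 supernumerary subunits with low p-values in which a searched motif was found, because they let the shared sequence elements of nuclear respiratory genes be seen. Each is 300 bases long around a transcript start and is written 5′ to 3′ on the strand of the gene, and capitals mark motif letters. The windows are chr13:73328433-73328732 (minus strand) for Ndufs6, chr8:83566508-83566807 (plus strand) for Ndufb7, chr4:123718137-123718436 (minus strand) for Ndufs5 and chr13:114388045-114388344 (minus strand) for Ndufs4.
Ndufs6: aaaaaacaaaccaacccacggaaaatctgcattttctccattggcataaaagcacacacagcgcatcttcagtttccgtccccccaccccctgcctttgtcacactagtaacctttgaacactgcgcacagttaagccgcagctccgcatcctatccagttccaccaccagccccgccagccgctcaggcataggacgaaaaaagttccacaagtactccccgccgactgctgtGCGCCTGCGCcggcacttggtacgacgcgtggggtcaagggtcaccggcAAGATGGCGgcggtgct
Ndufb7: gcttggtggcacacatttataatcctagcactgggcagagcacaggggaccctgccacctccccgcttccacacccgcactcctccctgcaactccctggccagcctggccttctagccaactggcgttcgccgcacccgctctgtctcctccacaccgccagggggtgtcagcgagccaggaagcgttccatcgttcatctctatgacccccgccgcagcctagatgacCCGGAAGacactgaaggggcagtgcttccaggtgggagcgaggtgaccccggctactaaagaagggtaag
Ndufs5: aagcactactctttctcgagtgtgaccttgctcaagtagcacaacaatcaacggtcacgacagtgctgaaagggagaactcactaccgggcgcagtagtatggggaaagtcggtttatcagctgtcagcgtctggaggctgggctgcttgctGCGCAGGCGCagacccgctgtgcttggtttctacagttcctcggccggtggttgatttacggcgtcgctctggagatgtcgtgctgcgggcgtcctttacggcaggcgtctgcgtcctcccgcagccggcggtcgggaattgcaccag
Ndufs4: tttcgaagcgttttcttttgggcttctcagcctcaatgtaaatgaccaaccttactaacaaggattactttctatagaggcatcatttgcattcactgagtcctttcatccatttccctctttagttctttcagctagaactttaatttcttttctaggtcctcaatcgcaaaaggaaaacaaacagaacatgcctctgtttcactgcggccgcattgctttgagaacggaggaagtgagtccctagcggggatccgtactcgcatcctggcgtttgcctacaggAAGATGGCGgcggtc

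In the Ndufs6 window, bases 235 to 244 (counted from the 5′ end) match the NRF1 motif and bases 284 to 292 match the YY1 motif AAGATGGCG. The capitals mark an ETS motif (CCGGAAG) in Ndufb7, an NRF1 motif in Ndufs5 and a YY1 motif in Ndufs4. Both strands were searched, and NRF1, YY1 and ETS factors are known to act on genes of the respiratory chain. Windows were found for 40 of the 46 genes. Among the 35 windows of subunits, 22.9% held the NRF1 motif, against 9.44% of the windows of all genes tested and 4.60% of all 32851 windows. The YY1 motif was held by 14.3%, against 2.88% and 1.40%. The ETS motif was held by 11.4%, against 16.6% and 8.86%. No subunit window held the ERR motif TCAAGGTCA, which 0.299% of the windows of genes tested and 0.423% of all windows held. A match describes these letters only and is not evidence of binding.

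The values are FPKM, that is, fragment numbers divided by exon length and by a divisor for each library. The divisor implied by the FPKM steps was 14239712 in Chow replicate 1 and 19316914 in HFpEF replicate 3. It was not the total of recovered reads. Reads recovered from the FPKM steps totalled 15574914, 13076772 and 13257173 in Chow replicates 1 to 3 and 13461735, 16027084 and 15196287 in HFpEF replicates 1 to 3. A subunit held between 236 and 16051 of these reads in a library (median 2451), and an Ndufaf gene between 131 and 894. HFpEF replicate 3 stood apart from the other libraries. On the first principal component of the genes tested, which held 42.3% of the variance, it lay at 75.5, while HFpEF replicates 1 and 2 lay at 11.6 and 12.7 and the Chow libraries between −35.8 and −31.7. Mitochondrially encoded genes took 24.5%, 26.0% and 24.0% of reads in Chow, 22.6% and 20.1% in HFpEF replicates 1 and 2, and 7.17% in HFpEF replicate 3. Most list results and some single-gene results are therefore given with and without that library.

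As a group, complex I subunit transcripts were lower by FPKM in HFpEF, though none passed limma's adjusted p of 0.05 with all 6 libraries. Their summed FPKM was 6050, 6511 and 6529 in the Chow libraries and 4153, 4614 and 2947 in the HFpEF libraries, so that each HFpEF library lay below each Chow library. As a percentage of the Chow mean, HFpEF replicates 1, 2 and 3 held 65.3%, 72.5% and 46.3%. In bulk tissue, fewer cells of a type and less RNA per cell cannot be told apart. The fitted log2 fold change (HFpEF against Chow, on log2(FPKM + 0.1)) was below 0 for 38 of 38 subunits (51.2% of all 14227 genes tested) with a median of −0.73, whereas the median of all genes was −0.012. The subunits lay 0.72 below the all-gene median in that fit, and centring each library on ventricular cardiomyocyte markers, which raised the median of all genes to 0.71, left 19 of the 38 below 0 (5.16% of all genes). The 3 HFpEF values lay below all 3 Chow values for 35 subunits, and 19.8% of all genes tested were lower in that way. By limma's moderated test, 35 subunits were lower at an unadjusted p under 0.05, compared with 13.1% of all genes tested.

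No subunit had a Benjamini-Hochberg adjusted p under 0.05 in the limma fit of all 6 libraries, in which 0.00703% of genes were called lower and 0.0914% higher. The adjusted p of the subunits ran from 0.0963 to 0.467. In an exact two-sided permutation test, 0.1 is the smallest p that 3 mice against 3 can give, and 35 subunits had that value. Only genes without overlap between groups reach it, so these are the same 35 subunits and not separate evidence. Of all genes tested, 19.8% were lower and 15.5% higher without overlap. Without HFpEF replicate 3, the same model called 29 of the 38 subunits lower, beside 5.50% of all genes. Their median log2 fold change was then −0.53, smaller than with all libraries, and the smallest adjusted p was 0.0118. Of the 46 genes, 14 had a log2 fold change more than 1.5 times smaller without this library, and 1, Ndufa4l2, had one more than 1.5 times larger.

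The order of the libraries was much the same from gene to gene. HFpEF replicate 3 held the lowest of the 6 values for 36 of 38 subunits and 8 of 8 Ndufaf genes, and it was the lowest library for 34.6% of all genes tested. Of the HFpEF libraries, replicate 2 held the highest value for 35 subunits. Among Chow libraries, replicate 1 was the lowest for 30 subunits, and replicates 2 and 3 were the highest for 23 and 15. Since genes of 1 library share its tissue and its scaling, the 38 subunits are not 38 independent observations.

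The 7 nuclear core subunits, which carry the flavin, the iron-sulfur clusters and the ubiquinone site, were lower in HFpEF without overlap between groups (19.8% of all genes tested), 7 of 7 at an unadjusted p under 0.05 (13.1%). Their median log2 fold change was −0.69, and 0.027 after centring on cardiomyocyte markers, where 0 of 7 had an unadjusted p under 0.05 in limma. Under that centring, 0.211% of all genes were lower and 68.1% higher at that p. The limma adjusted p ran from 0.119 to 0.139 with all libraries, and 7 of 7 passed without HFpEF replicate 3 (5.50% of all genes).

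Ndufv1 binds NADH and the flavin that accepts its electrons. It measured 286.5, 290.5 and 284.2 FPKM in Chow and 196.8, 214.1 and 142.6 FPKM in HFpEF, with the Chow libraries within a few percent of each other (log2 fold change −0.66, SE 0.18, limma adjusted p = 0.126). Its partner in the NADH-oxidizing tip, Ndufv2, measured 196.2, 216.6 and 206.0 FPKM in Chow and 138.5, 146.8 and 85.5 FPKM in HFpEF. Both therefore kept the same order of HFpEF libraries, with replicate 2 highest and replicate 3 lowest. Ndufs1, the large subunit that carries several of the iron-sulfur clusters, measured 89.0, 89.5 and 92.2 FPKM in Chow and 64.3, 69.9 and 44.6 FPKM in HFpEF. Its log2 fold change of −0.62 was the smallest of the 7. Ndufs3, part of the Q module, measured 133.4, 136.9 and 136.7 FPKM in Chow and 89.8, 102.6 and 67.3 FPKM in HFpEF.

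Ndufs7 and Ndufs8 hold the last iron-sulfur clusters before ubiquinone. Ndufs7 measured 240.0, 246.7 and 234.8 FPKM in Chow and 161.8, 179.9 and 112.8 FPKM in HFpEF. Ndufs8 measured 217.8, 231.7 and 222.2 FPKM in Chow and 142.4, 162.1 and 91.5 FPKM in HFpEF, and its log2 fold change of −0.80 (SE 0.22) was the largest of the core. The groups did not overlap for either gene.

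Among supernumerary subunits, 29 of 29 had a log2 fold change below 0, 27 at an unadjusted p under 0.05 (13.1% of all genes tested), and the median was −0.74. After centring on cardiomyocyte markers it was −0.020, with 15 of 29 below 0 (5.16% of all genes). Limma called 21 of them lower without HFpEF replicate 3 (5.50% of all genes). The 5 subunits with the lowest p were all supernumerary. Ndufs6, a zinc-binding subunit of the N module, had the lowest. It measured 201.7, 221.4 and 226.7 FPKM in Chow (mean 216.6 ± 13.2, SD, n = 3) and 125.1, 118.9 and 84.7 FPKM in HFpEF (109.6 ± 21.7, SD, n = 3). The HFpEF mean was 49.4% lower, with no overlap, and the log2 fold change was −1.001 (SE 0.18, limma adjusted p = 0.0963). Without HFpEF replicate 3 it was −0.83, with a limma adjusted p of 0.0118. After centring on cardiomyocyte markers it was −0.28 (limma adjusted p = 0.0583), further below 0 than the median subunit at −0.0063. Exons of Ndufs6 overlap those of Mrpl36 on the other strand, and it is not stated whether the counting used strand.

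Ndufb5 and Ndufb7 belong to the membrane arm. Ndufb5 measured 53.9, 57.3 and 59.0 FPKM in Chow and 37.1, 40.2 and 30.9 FPKM in HFpEF (log2 fold change −0.66, SE 0.13, limma adjusted p = 0.0989). Ndufb7 measured 41.0, 46.3 and 45.6 FPKM in Chow and 26.9, 30.4 and 21.2 FPKM in HFpEF (log2 fold change −0.77, SE 0.15, limma adjusted p = 0.0989). In both, HFpEF replicate 3 lay closer to the other HFpEF libraries than it did for most subunits. Ndufs5, a subunit of the ND2 module that faces the intermembrane space, measured 123.2, 132.5 and 133.2 FPKM in Chow and 80.9, 87.4 and 58.7 FPKM in HFpEF. Ndufs4, which helps to hold the N module on the enzyme and is a known cause of Leigh syndrome when lost, measured 51.7, 56.2 and 53.1 FPKM in Chow and 34.2, 36.4 and 24.1 FPKM in HFpEF. Both had a limma adjusted p of 0.107 and no overlap between groups. Without HFpEF replicate 3, these 4 genes were called lower by limma with adjusted p-values of 0.0162, 0.0175, 0.0138 and 0.0138.

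The modules of the enzyme did not stand far apart. The median log2 fold change was −0.74 for the 8 genes of the N module, −0.77 for the 6 of the Q module, −0.66 for the 4 of ND1, −0.66 for the 5 of ND2, −0.76 for the 5 of ND4 and −0.71 for the 5 of ND5. The matrix arm as a whole (16 genes) had a median of −0.77 and the membrane arm (19 genes) of −0.69. Without HFpEF replicate 3 the medians were −0.56 for N, −0.53 for Q, −0.51 for ND1, −0.42 for ND2, −0.53 for ND4 and −0.55 for ND5, and limma called 14 genes of the matrix arm and 13 of the membrane arm lower (5.50% of all genes). No test of a difference between modules was made. Across the 38 subunits, the log2 fold change had a Pearson r of 0.016 with the logarithm of exon length and of −0.29 with that of the Chow mean (Spearman rho 0.00077 and −0.099), given as a description, since all genes share the same 6 libraries.

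**Figure D1:**
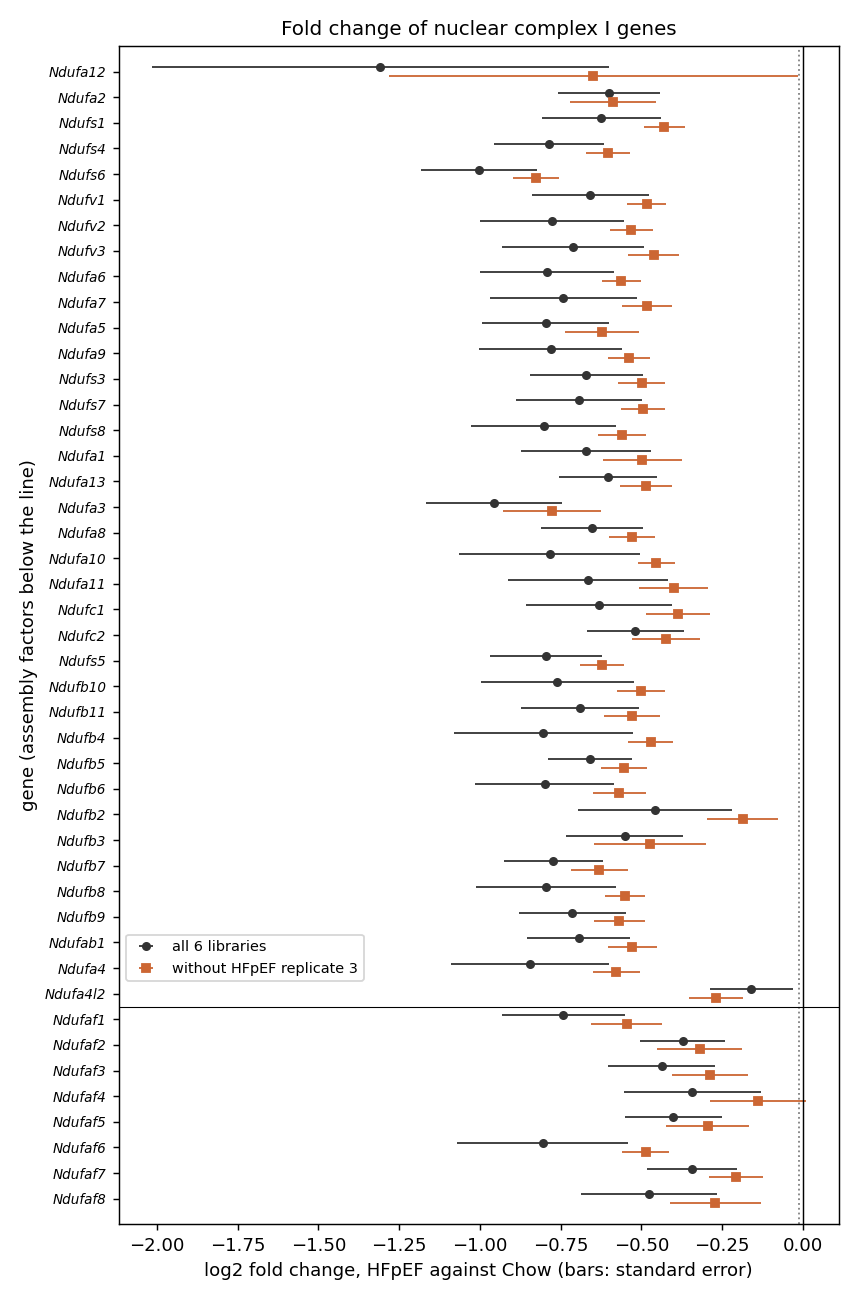
Points give the log2 fold change of each gene shown (HFpEF against Chow) and bars the standard error, in black for all 6 libraries and in orange without HFpEF replicate 3. The dotted line is the median of all genes tested, −0.012. Every point lies below 0 under this scaling, though not after centring on cardiomyocyte markers, and nearly all orange bars are shorter.

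The 3 other subunits did not reach an unadjusted p under 0.05, and in each the groups overlapped. Ndufa4l2 was the member with the smallest difference. It resembles Ndufa4, and like Ndufa4 it is not counted as a stable subunit of complex I. It measured 18.3, 18.4 and 19.2 FPKM in Chow and 16.6, 14.4 and 19.4 FPKM in HFpEF, so HFpEF replicate 3, the lowest library for most subunits, was the highest here. Its log2 fold change was −0.16 (SE 0.13, limma adjusted p = 0.467), 0.09 when libraries were scaled to their nuclear FPKM sum, and 0.56 (limma adjusted p = 0.0489) after centring on cardiomyocyte markers, where 61.5% of all genes were called higher. With HFpEF replicate 3 left out, the groups did not overlap and the log2 fold change was −0.27 (limma unadjusted p = 0.0185, adjusted p = 0.115). Ndufa4l2 is known to be expressed in pericytes. The most abundant pericyte marker, Rgs5, measured 148.8, 142.7 and 164.6 FPKM in Chow and 118.0, 109.4 and 146.9 FPKM in HFpEF. It too was highest of the HFpEF libraries in replicate 3. With all libraries, the 6 pericyte markers had 3 log2 fold changes below 0 and 3 above, from −0.81 for Abcc9 to 0.21 for Cspg4 (median −0.12). When HFpEF replicate 3 was left out, 5 of the 6 were below 0, with a median of −0.35, and limma called 3 lower (5.50% of all genes). The 6 markers summed to 100.8%, 94.5% and 105% of their Chow mean in Chow and to 78.2%, 70.0% and 93.6% in HFpEF, a sum in which Rgs5 weighs most. Their part in the Ndufa4l2 values was not tested.

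Ndufa4 itself, now known to be associated with cytochrome c oxidase, followed the other subunits. It measured 330.4, 356.1 and 371.3 FPKM in Chow and 226.9, 245.7 and 135.0 FPKM in HFpEF (log2 fold change −0.85, SE 0.25, limma adjusted p = 0.136). Without HFpEF replicate 3 its log2 fold change was −0.58 (limma adjusted p = 0.0161). Ndufb2, of the ND5 module, had the lowest FPKM of the subunits at 7.35, 8.55 and 8.10 in Chow and 6.51, 7.54 and 3.95 in HFpEF. One HFpEF value lay above the lowest Chow value, and the log2 fold change was −0.46 (SE 0.24, limma adjusted p = 0.290), and −0.19 without HFpEF replicate 3 (limma adjusted p = 0.350). The exons of Ndufb2 sum to 5628 bases over all annotated transcripts, which lowers its FPKM relative to a short mRNA, and they overlap other genes.

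Ndufa12, an N module subunit named after its values were seen, had the widest spread. It measured 67.0, 104.1 and 34.6 FPKM in Chow and 24.4, 64.6 and 9.997 FPKM in HFpEF. The Chow libraries alone differed about as much as the groups did, and the log2 fold change of −1.31 had an SE of 0.71 (limma adjusted p = 0.306). It was −0.65 without HFpEF replicate 3 (limma adjusted p = 0.590). Ndufa3, also named after its values were seen, is a small subunit of the ND1 module. It measured 109.9, 137.4 and 158.2 FPKM in Chow and 76.4, 79.5 and 53.7 FPKM in HFpEF, without overlap, and its log2 fold change of −0.96 (SE 0.21, limma adjusted p = 0.108) was next to that of Ndufs6. Without HFpEF replicate 3 the log2 fold change of Ndufa3 was −0.78 (limma adjusted p = 0.0397).

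As a group, the Ndufaf assembly factors were also lower in HFpEF, except after centring on cardiomyocyte markers. Their summed FPKM was 92.8%, 97.0% and 110% of the Chow mean in Chow and 76.8%, 80.5% and 53.1% in HFpEF. All 8 log2 fold changes were below 0, with a median of −0.42, and 6 had an unadjusted p under 0.05 (13.1% of all genes tested) and no overlap between groups (19.8%), but after centring on cardiomyocyte markers the median was 0.30. The limma adjusted p ran from 0.119 to 0.355. Their median was −0.40 under quantile normalization, beside −0.46 for the subunits, and −0.26 beside −0.30 when HFpEF replicate 3 was also left out. The difference between assembly factors and subunits was not tested. Ndufaf1, which acts in building the membrane arm, had the lowest p. It measured 23.0, 26.7 and 28.8 FPKM in Chow and 17.05, 18.6 and 11.8 FPKM in HFpEF (log2 fold change −0.74, SE 0.19, limma adjusted p = 0.119).

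With HFpEF replicate 3 left out, 3 of the 8 were lower at an unadjusted p under 0.05 (15% of all genes). Limma then called 2 assembly factors lower (5.50% of all genes), Ndufaf1 (adjusted p = 0.0397) and Ndufaf6 (adjusted p = 0.0197). Ndufaf6, named after its values were seen, measured 14.6, 15.9 and 15.2 FPKM in Chow and 10.7, 10.9 and 5.53 FPKM in HFpEF, and its log2 fold change was −0.81 with all libraries and −0.49 without HFpEF replicate 3. Ndufaf4 and Ndufaf7 were likewise named after their values were seen. Ndufaf4 measured 13.0, 12.6 and 17.1 FPKM in Chow and 12.1, 13.5 and 8.36 FPKM in HFpEF, and its groups overlapped (log2 fold change −0.34, limma adjusted p = 0.355, and −0.14 without HFpEF replicate 3). Ndufaf7, a mitochondrial methyltransferase, had a log2 fold change of −0.34 in the fit of all libraries and of −0.21 without HFpEF replicate 3. After centring on cardiomyocyte markers it was 0.38 (limma adjusted p = 0.0375), where 61.5% of all genes were called higher. A further 11 complex I assembly factors do not carry the Nduf name. Their log2 fold changes were below 0 for 11 of 11 (51.2% of all genes tested), with a median of −0.51 (−0.32 without HFpEF replicate 3). After centring on cardiomyocyte markers, however, 10 of 11 were above 0, with a median of 0.21. Of all genes, 13493 of 14227 were then above 0, with a median of 0.71. At an unadjusted p under 0.05, 8 were lower (13.1% of all genes tested), and 0 had an adjusted p under 0.05 in limma with all libraries, against 6 without HFpEF replicate 3 (5.50% of all genes). Their most abundant gene was Tmem70. Foxred1 (−0.66), Lyrm2 (−0.65) and Tmem186 (−0.61) had low p-values among them, and each was above 0 after centring on cardiomyocyte markers.

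The mitochondrial genome encodes the other 7 core subunits, which lie in the membrane arm. Their summed FPKM was 96.9%, 102% and 100.9% of the Chow mean in Chow and 85.0%, 72.1% and 21.4% in HFpEF. Compared with the nuclear core genes, at 67.4%, 72.9% and 45.0% in HFpEF, they were nearer to Chow in HFpEF replicate 1 and further from it in replicate 3. All 7 had a log2 fold change below 0 with a median of −1.07, but 0 had an unadjusted p under 0.05 in limma (13.1% of all genes tested were lower). The median was −0.37 without HFpEF replicate 3, where 4 of 7 were lower at an unadjusted p under 0.05 (15% of all genes), and mt-Nd2 alone was called lower (limma adjusted p = 0.0437, beside 5.50% of all genes). Under quantile normalization the median was −0.16, and it was close to 0 when HFpEF replicate 3 was also left out. That method gives each rank the same value in every library. For the most abundant genes, which keep similar ranks, it therefore cannot show whether their level changed.

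The most abundant, mt-Nd1, measured 23528, 27372 and 26714 FPKM in Chow and 21087, 19029 and 6265 FPKM in HFpEF. mt-Nd2 measured 17162, 18471 and 17229 FPKM in Chow and 14431, 13002 and 3174 FPKM in HFpEF. HFpEF replicate 3 was far below the other HFpEF libraries in both. mt-Nd4 measured 17325, 17840 and 14921 FPKM in Chow and 14397, 11594 and 2178 FPKM in HFpEF. mt-Nd5 measured 14872, 16306 and 13731 FPKM in Chow and 12308, 9659 and 2778 FPKM in HFpEF. In these 4 genes the groups did not overlap, and 5 of the 7 were lower without overlap (19.8% of all genes tested). mt-Nd3 ran from 209.9 to 1401 FPKM within Chow and overlapped between groups. mt-Nd6, the gene on the other strand, measured 9958, 8250 and 12409 FPKM in Chow and 10679, 9168 and 4302 FPKM in HFpEF and also overlapped. Its log2 fold change was −0.43 with all libraries (limma adjusted p = 0.544) and −0.025 without HFpEF replicate 3 (limma adjusted p = 0.951). With all libraries it was above 0 under quantile normalization and after centring on cardiomyocyte markers.

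**Figure D2:**
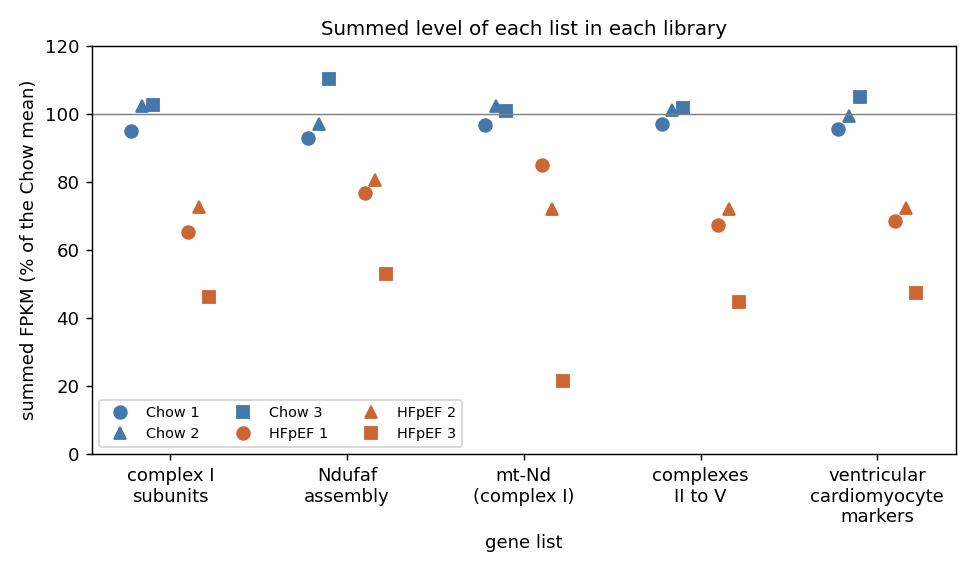
Each point is 1 library, and the vertical axis gives the summed FPKM of a list as a percentage of its Chow mean. HFpEF replicates 1 and 2 lie between 65.3% and 85.0%, and HFpEF replicate 3 lies at 46.3% for the subunits and at 21.4% for the mitochondrially encoded genes. The subunits, the nuclear complexes II to V and the ventricular cardiomyocyte markers have nearly the same values in each library.

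The rest of the respiratory chain had values close to those of complex I, and no difference between them was tested. The 41 nuclear genes of complexes II to V summed to 67.3%, 72.0% and 44.7% of their Chow mean in HFpEF replicates 1 to 3. All 41 had a log2 fold change below 0, 38 at an unadjusted p under 0.05 (13.1% of all genes tested), and their median of −0.73 was that of the complex I subunits. Limma called 34 of them lower without HFpEF replicate 3 (5.50% of all genes). After centring on cardiomyocyte markers their median was −0.0063, 18 of 41 were above 0 (13493 of 14227 genes tested), and 1 was lower at an unadjusted p under 0.05 (0.211% of all genes). Of 14 regulators of respiratory chain genes, 7 were lower and 1 was higher at an unadjusted p under 0.05 (13.1% and 10.2% of all genes tested), with a median log2 fold change of −0.41, of −0.24 without HFpEF replicate 3, and of 0.31 after centring on cardiomyocyte markers. After that centring 12 of 14 were above 0 (13493 of 14227 genes tested). At an unadjusted p under 0.05 there were then 0 lower and 7 higher (0.211% and 68.1% of all genes). Limma called 3 lower without HFpEF replicate 3 (5.50% of all genes). Ppara, a nuclear receptor that controls fatty acid oxidation, measured 9.69, 9.70 and 10.7 FPKM in Chow and 6.41, 6.86 and 4.24 FPKM in HFpEF (log2 fold change −0.80, limma adjusted p = 0.117). Without HFpEF replicate 3 its log2 fold change was −0.59 (limma adjusted p = 0.0199). Pprc1, a coactivator related to PGC-1, was the one higher at that p, at 2.83, 2.67 and 2.65 FPKM in Chow and 3.27, 4.01 and 5.599 FPKM in HFpEF (log2 fold change 0.61, and 0.40 without HFpEF replicate 3, limma adjusted p = 0.161 and 0.127). Ppargc1b had a log2 fold change of −0.43 and Esrra, the most abundant regulator, of −0.53 (−0.30 and −0.33 without HFpEF replicate 3), and both were above 0 after centring on cardiomyocyte markers. Of genes for import and NADH-linked steps, 3 were tested and 3 were lower at an unadjusted p under 0.05 (13.1% of all genes tested). Their median log2 fold change was −0.55, and −0.34 without HFpEF replicate 3, where limma called 1 of the 3 lower (5.50% of all genes). After centring on cardiomyocyte markers it was 0.17, and 3 of 3 were above 0 (13493 of 14227 genes tested).

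Ventricular cardiomyocyte markers had nearly the same summed library values as the subunits. The 12 ventricular cardiomyocyte markers, led by Actc1, summed to 95.5%, 99.5% and 105% of the Chow mean in Chow and to 68.5%, 72.4% and 47.2% in HFpEF, beside 65.3%, 72.5% and 46.3% for the subunits. The median log2 ratio to the Chow mean was −0.47, −0.40 and −1.02 for the markers in HFpEF replicates 1 to 3. For the subunits it was lower in each, at −0.59, −0.45 and −1.14, and the difference was not tested. All 12 were lower without overlap (19.8% of all genes tested), 6 at an unadjusted p under 0.05 (13.1%), with a median log2 fold change of −0.68. Without HFpEF replicate 3 the median was −0.41, 11 were lower at an unadjusted p under 0.05 (15% of all genes) and limma called 8 (5.50% of all genes), beside 36 and 29 of the 38 subunits. After centring on the median log2 level of the 12 markers, the subunits had a median log2 fold change of −0.0063. The markers themselves then had a median of 0.044, with 8 of 12 above 0 (13493 of 14227 genes tested). Without HFpEF replicate 3, the centred medians were 0.074 for the subunits and 0.19 for the markers. With all libraries centred in this way, 1 subunit had no overlap between groups, and the share of all genes was not computed for that count. At an unadjusted p under 0.05 limma then had 1 subunit lower (0.211% of all genes) and 1 higher (68.1% of all genes). Because cardiomyocytes express both, a lower share of cardiomyocyte RNA and lower complex I transcripts within cardiomyocytes cannot be told apart in this design.

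Fibroblast markers were higher in HFpEF for 6 of 6 genes, without overlap (15.5% of all genes tested), and summed to 173%, 207% and 2255% of their Chow mean in HFpEF replicates 1 to 3. Col1a1, the most abundant, measured 27.2, 25.6 and 24.9 FPKM in Chow and 53.9, 87.3 and 2252 FPKM in HFpEF. The library with the lowest subunit values was thus also the one with the highest fibroblast values. The 6 macrophage markers, led by C1qa, had log2 fold changes above 0, 2 of them without overlap (15.5% of all genes tested), and summed to 107%, 151% and 308% of their Chow mean in HFpEF. Of 6 liver genes, led by Hp, 2 were tested and both were called higher by limma (0.0914% of all genes), and the 6 summed to 2750%, 3323% and 4309% of their Chow mean, while Alb was at 0 in all 6 libraries. In HFpEF replicates 1 to 3, skeletal muscle markers summed to 61.0%, 55.5% and 32.4% of their Chow mean and brown adipocyte markers to 136%, 145% and 62.6%, with replicate 3 lowest in both, as for the subunits. Endothelial markers summed to 81.0%, 75.1% and 80.9%, smooth muscle markers to 634%, 70.3% and 377%, cartilage and tendon markers to 929%, 228% and 624%, and red blood cell genes to 229%, 60.4% and 73.9%, with replicate 2 lowest in each. Atrial cardiomyocyte markers were uneven: their most abundant gene, Myl7, measured 3.81, 0.289 and 237.1 FPKM in Chow and 973.6, 2073 and 8.60 FPKM in HFpEF, lowest of the HFpEF libraries in replicate 3, although the tissue is described as left ventricle. Of 6 adipocyte markers, 5 were tested. All 5 were higher without overlap (15.5% of all genes tested), and limma called 4 higher (0.0914% of all genes). The most abundant of them, Cfd, was at 0 in each Chow library and measured 35.3, 37.8 and 22.9 FPKM in HFpEF. The part of these cell types in the complex I values was not tested.

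**Figure D3:**
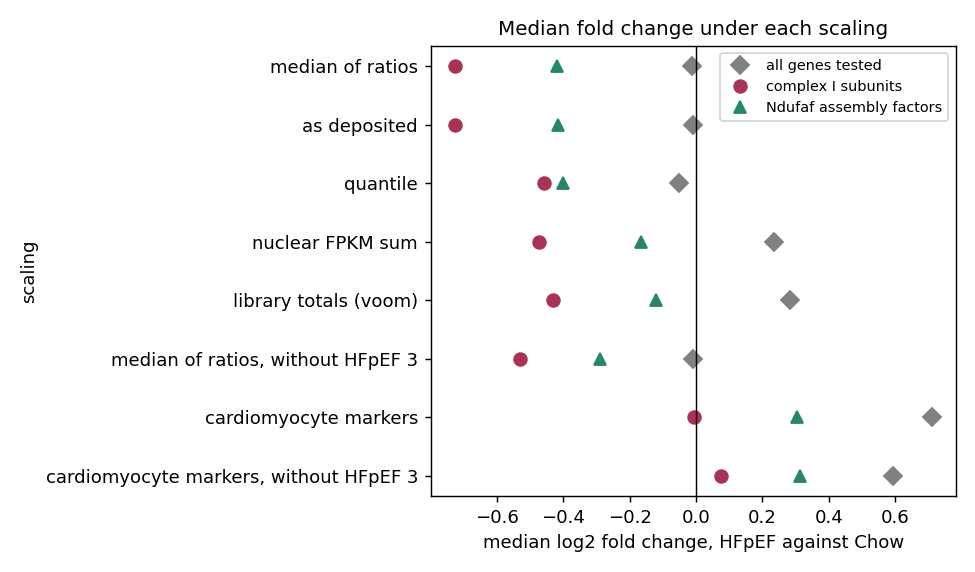
Each row is a way of scaling the libraries, and points give the median log2 fold change of all genes tested, of the subunits and of the Ndufaf assembly factors. The subunits lie to the left of all genes in every row. They are below 0 in every row except for cardiomyocyte markers without HFpEF replicate 3. There their median is 0.07, and that of the markers themselves, which is not drawn, is 0.19. The assembly factors are above 0 in both rows centred on those markers.

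The median fold changes depended on how libraries were scaled. Scaling to the nuclear FPKM sum put the subunit median at −0.47 and the all-gene median at 0.24, and scaling recovered reads to library totals put them at −0.43 and 0.28, so the subunits were 0.71 below all genes in both, which follows from moving each library by a single factor. Quantile normalization, which can move genes unequally, gave −0.46 and a distance of 0.41. With HFpEF replicate 3 left out, the distance was 0.52 with the median of ratios and 0.26 with quantile normalization. Under both of the first 2 scalings 37 of 38 subunits were below 0, the exception being Ndufa4l2, and under quantile normalization 38 were.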

How the data were processed

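Each library came from the left ventricular myocardium of 1 mouse (3 Chow, 3 HFpEF), so replicates are separate animals. The authors aligned reads with HISAT2 2.0.5, counted them per gene with featureCounts 1.5.0-p3 (builds GRCm38 and mm10 in the submitters' processing notes) and deposited FPKM. The annotation release, the strand setting and the scaling inside FPKM are not given in the sources used here. FPKM multiplied by the union exon length of GENCODE release M21 was a whole multiple of 1 step for 96.1% to 96.2% of values (relative tolerance 1e-06), and reads were recovered from it. Exons of 19 of the 46 genes overlap another gene, 17 of them on the other strand. After median-of-ratios scaling, log2(FPKM + 0.1) was fitted with limma 3.58.1 in R 4.3.3 (trend and robust options, group only) for genes that reached an FPKM of 0.5 in 3 or more libraries. Adjusted p-values are Benjamini-Hochberg over all 14227 genes tested. The fold change of genes with low FPKM is understated by the pseudocount. Recovered reads give counting error only.

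The genes, lists and tests were chosen with earlier results of these data known. The rule for named genes took the 7 nuclear core subunits, the 5 subunits and the Ndufaf gene with the lowest p, Ndufa4, Ndufa4l2, the subunits with the highest and lowest FPKM, mt-Nd1 to mt-Nd6, and up to 3 genes of each other list; others are marked. Not every result under this rule is reported here or drawn. Alternatives were other scalings, pseudocounts, filters and variance models, voom on recovered reads, a replicate block and leaving out each library. Centring on cardiomyocyte markers subtracted from each library the median log2 value of the 12 ventricular markers. Voom on recovered reads called 0 genes. Tables were handled in pandas 2.3.3 and numpy 2.4.6, exact tests in scipy 1.17.1, and figures in matplotlib 3.10.9, under Python 3.11.15. The fit was tested on simulated data.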

Additional observations from a re-analysis of the deposited data

How the results depend on the processing

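The number of genes with an adjusted p under 0.05, 14 in the limma fit of all libraries, was 77 with scaling to the nuclear FPKM sum, 8762 with centring on cardiomyocyte markers, 3 and 5 with pseudocounts of 1 and 0.01, 33 without trend or robust options, 0 with voom and 56 with voom on library totals. Leaving out 1 library gave 2 to 1188, the highest without HFpEF replicate 3, with 9092, 1137 and 443 when cardiomyocyte centring, the nuclear sum or quantile normalization was added. Subunits called lower numbered 29 without HFpEF replicate 3 and 0 when any other single library was left out. Without HFpEF replicate 3 they numbered 17 with the nuclear sum and 8 with quantile normalization. Centring on cardiomyocyte markers left 1 subunit lower at an unadjusted p under 0.05 (0.211% of all genes), and also 1 without HFpEF replicate 3 (48 of 14227 genes). It left 1 subunit without overlap, a count for which the share of all genes was not computed. The subunit median was then −0.0063, and 0.0743 without HFpEF replicate 3, where the nuclear sum gave −0.323 and quantile normalization −0.298. After the same centring, the markers' own median was 0.0438, and 0.192 without HFpEF replicate 3. The Ndufaf median was 0.303 and 0.312 after centring with and without that library, −0.119 with voom on library totals and −0.087 with the nuclear sum without it. The mt-Nd median was 0.237 after centring without it. Centring raised every gene by the same amount, which by itself put Esrra at 0.19, Foxred1 at 0.064, Lyrm2 at 0.074, Ndufa4l2 at 0.56, Ndufaf4 at 0.38, Ndufaf7 at 0.38, Ndufb2 at 0.26, Ndufb5 at 0.061, Ndufs1 at 0.097, Ndufs3 at 0.051, Ndufs7 at 0.027, Ndufv1 at 0.062, Ppargc1b at 0.29, Tmem186 at 0.11, Tmem70 at 0.21 and mt-Nd6 at 0.30. Ndufa4l2 was at 0.094 with the nuclear sum and mt-Nd6 at 0.29 with quantile normalization. For the other reversals and lost calls the cause was not tested. Scalings of recovered reads and combinations with a library left out were chosen after seeing the data.

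With the replicate number as a block, 2 genes had an adjusted p under 0.05. In that fit 35 subunits had an unadjusted p under 0.05, beside 3004 of 14227 genes in either direction, and 0 an adjusted one. Deviations of same-numbered libraries had correlations of −0.041, −0.073 and −0.057, and those of differently numbered libraries ran from −0.0022 to 0.072. Pairing by number is not visible in these values, but with so few libraries they cannot exclude it. The least covered of the 46 genes had 131 reads in a library, so counting error is part of the spread of the low Ndufaf genes, and its size was not separated from the spread between mice.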
